A study of Mus musculus with 43 samples.

Results

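The semaphorins, plexins and neuropilins were taken as the protein-coding genes of the count table whose symbols name a semaphorin of classes 3 to 7, a plexin of classes A to D or a neuropilin. These were 31 of 56980 genes, made up of 20 semaphorins, 9 plexins and 2 neuropilins. Semaphorins are guidance ligands, secreted in class 3 and held at the cell surface in classes 4 to 7, and plexins are their receptors, whose cytoplasmic part signals through small GTPases to the cytoskeleton. Neuropilins bind class 3 semaphorins and form the receptor together with a plexin. In the developing cortex these proteins are known for steering migrating neurons and growing axons, callosal axons of the upper layers among them.

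RNA-seq was made from GFP-labelled L2/3 neurons of the somatosensory cortex in C57BL/6JRccHsd mice, whose progenitors had received a GFP plasmid by in utero electroporation (IUE) at E15.5, and 1 library was made per sample of sorted cells. At E19 there were 4 female and 4 male libraries each of wild type (WT), Cux1 KO (germline Cux1 ΔC/ΔC) and Cux2 KO (germline Cux2 -/-). At P4 there were 3 female and 3 male libraries each of WT and Cux2 KO, and 2 male libraries of Cux1 KO, and at P7 there were 2 female and 3 male WT libraries. The Cux1 KO neurons at P4 came from Cux1 f/Δ23 mice, in which every cell carried a Δ23 allele, and which received a CRE plasmid by IUE. Only the electroporated cells became Δ23/Δ23, whereas in the E19 KO embryos every cell was homozygous for the mutation. The Cux1 KO of the 2 stages thus differed in allele, in the cells that were homozygous, in the plasmids, in age and in sequencing round. WT and Cux2 KO mice received the GFP plasmid without CRE, whereas the paper's methods pair the CRE plasmid with another GFP plasmid, pCALNL-GFP. Loss of Cux1 and these plasmids therefore cannot be told apart at P4. The paper reports that more Cux1 KO than WT neurons died during dissociation, increasingly with maturation. The part of this in the P4 libraries was not tested. Cux1 and Cux2 encode homeodomain transcription factors of upper-layer neurons. E19 was sequenced in one round and P4 and P7 in another, so age and round cannot be told apart between E19 and P4. Nothing in the labels ties a library to 1 animal or litter, so each p-value below measures the spread between these libraries, which may be technical in part.

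The counts per library numbered 13321095 to 20715732 for E19, 19499125 to 60559585 for P4, and 15312029 to 27633827 for P7. Levels are given as CPM, counts scaled to the library total, after TMM normalization over the 43 libraries, and each group pair was tested with edgeR's two-sided quasi-likelihood test, with Benjamini-Hochberg adjustment over all genes tested. Calls needed an adjusted p under 0.05 together with a log2 fold change larger in size than 0.5 among E19 libraries, or than 1 where libraries of P4 or P7 entered. Interaction terms were called on the adjusted p alone. The counts cover whole genes and cannot show the deleted exons. At E19 the Cux1 level was 423 ± 65.7 CPM among WT females against 312 ± 26.9 among Cux1 KO females (mean ± SD, n = 4 each), and the difference over both sexes was not called (log2 fold change -0.33, SE 0.0826, adjusted p = 0.0864). In males it was at 401 ± 77.1 and 349.8 ± 31.7 CPM. Cux2 was at 457 ± 63 and 349 ± 56.2 CPM in WT and Cux2 KO females and at 412 ± 77.6 and 352 ± 62.5 in males at E19, and was not called either (log2 fold change -0.31, SE 0.101, adjusted p = 0.353 over both sexes), nor was Cux1 in Cux1 KO males or Cux2 in Cux2 KO at P4. At E19 the mean of each targeted gene was thus lower in its own KO in each sex, but the difference over both sexes was called for neither. Whole-gene counts therefore do not establish the genotypes, which are as labelled. The 8 upper-layer and callosal markers summed to 3366 to 4769 CPM per library in WT at E19, against 544 to 662 for 7 deep-layer markers. Marker sums changed with age in WT. The upper-layer and callosal sum was 835 to 993 CPM at P4 and 489 to 642 at P7. The deep-layer sum was 302 to 373 at P4 and 261 to 376 at P7. From E19 to P4 to P7, 7 pan-excitatory genes summed to 3447 to 4148, 807 to 1466 and 587 to 727 CPM per library. The 7 astrocyte and radial glia genes summed to 1615 to 2262, 2408 to 4665 and 5971 to 9239.

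Nrp2, the neuropilin known for binding Sema3f, was the only member of the family called in Cux1 KO against WT neurons at E19. It was higher in Cux1 KO in both sexes. Nrp2 (ENSMUSG00000025969) lies at chr1:62742444-62857854, plus strand, in GRCm39. WT females had 4.92, 6.37, 8.84 and 8.47 CPM and Cux1 KO females at 15.5, 19.7, 21.5 and 21.6 CPM. In WT males the libraries were at 7.05, 6.75, 6.39 and 8.59 CPM and in Cux1 KO males at 14.3, 17.5, 15.5 and 20.3 CPM. Every Cux1 KO library stood above every WT library, within and across the sexes, whereas 3.35% of all genes in females and 6.43% in males had groups that did not overlap in either direction. The rise was called in females (log2 fold change 1.46, SE 0.192, adjusted p = 0.0092), in males (log2 fold change 1.20, SE 0.166, adjusted p = 0.0292) and over both sexes with sex in the model (log2 fold change 1.33, SE 0.129, adjusted p = 5.15e-06, 2.51-fold). Nrp2 was 1 of 31 members tested in females, 1 of 30 in males and 1 of 31 over both sexes, where the same rule called 0.0576%, 0.0979% and 0.24% of all genes. Of all genes, 0.147% had every Cux1 KO library above every WT library over both sexes. The effects in the sexes differed by 0.26 on the log2 scale (females minus males, SE 0.256, adjusted p = 0.962 for the interaction term in edgeR). Markers of intermediate progenitors moved with Nrp2 in females: the 4 genes (Eomes, Neurog2, Insm1 and Btg2) summed to 738 to 832 CPM in Cux1 KO against 560.0 to 662 in WT females, without overlap, and to 579.7 to 763 against 506 to 669.7 in males, with overlap. In males the 7 oligodendrocyte lineage markers (386 to 594 against 595 to 734 CPM) and the microglial markers (30.5 to 45.3 against 51.9 to 69.4 CPM) were lower in Cux1 KO without overlap. The part of these cells in the rise of Nrp2 was not tested.

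**Figure D1:**
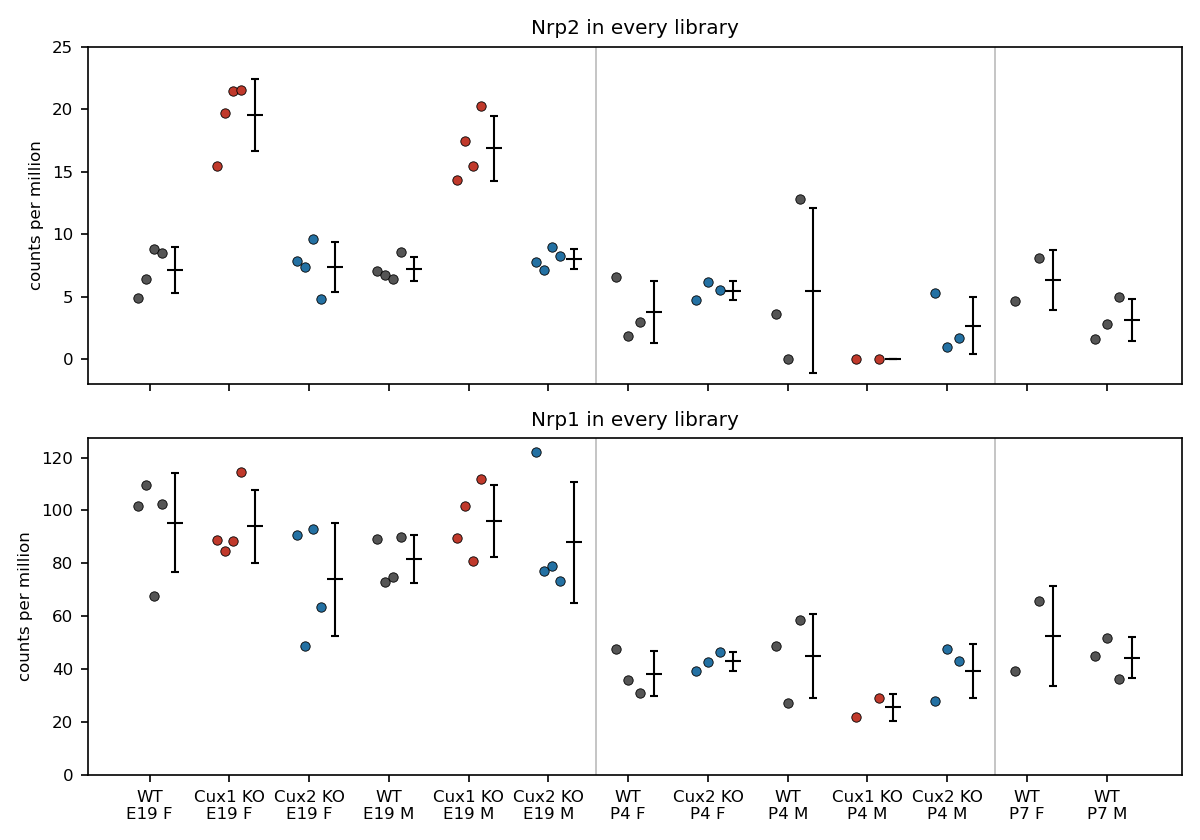
Levels (CPM) of Nrp2 and Nrp1 in each of the 43 libraries (points) by genotype, age and sex (F female, M male), with the mean ± SD of each group as a bar beside the points and grey lines between ages. The 8 Cux1 KO libraries at E19 lie between 14.3 and 21.6 CPM for Nrp2, above all other libraries at E19, while for Nrp1 they lie within the range of the others.

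The level behind this rise was low for the family. WT libraries at E19 held 82 to 139 Nrp2 counts and Cux1 KO libraries 236 to 382. Over both sexes the call held with any 1 of the 16 libraries left out. In females alone the adjusted p was 0.0602 without Cux1 KO replicate 3 and 0.0592 without WT replicate 2. In males the call was lost in 6 of 8 omissions: the adjusted p was 0.0888, 0.0663 and 0.0853 without Cux1 KO replicates 2, 3 and 4, and 0.0816, 0.0836 and 0.125 without WT replicates 1, 2 and 3. The log2 fold change stayed between 1.10 and 1.22 in these 6 fits. The exons of Nrp2 overlap those of Gm29083 on the opposite strand over 383 bases, 3.18% of their length, and Gm29083 had 2 counts in 1 of the 24 libraries at E19 and 0 in the others.

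The stretch upstream of the Nrp2 start is shown because Nrp2 was the member called at E19 in neurons with a mutated DNA-binding protein. It holds the 218 bases before the first annotated transcript start (chr1:62742226-62742443 in GRCm39, plus strand). The bases are those of the RefSeq promoter (GRCm38.p6), which matched GRCm39 at 1 place, and capitals mark CpG dinucleotides.
Nrp2 upstream: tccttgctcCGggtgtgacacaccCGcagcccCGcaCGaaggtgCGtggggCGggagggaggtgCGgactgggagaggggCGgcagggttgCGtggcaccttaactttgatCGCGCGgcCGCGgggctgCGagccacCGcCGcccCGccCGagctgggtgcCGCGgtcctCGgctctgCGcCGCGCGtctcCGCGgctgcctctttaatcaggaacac
It has 28 CpG and 72.5% G or C. Of 32851 RefSeq promoters, 4.4% have at least as many CpG in the first 218 bases of their sequence (median 5.0). That length was set by the start of Nrp2, and the distance of these bases from the starts of other genes was not matched. CUX proteins are known to bind ATCGAT and ATCAAT. Neither was found on either strand of the Nrp2 stretch. In the first 218 bases, not the whole promoter, ATCGAT was found for 0.661% of all promoters and 0 of the 26 members with a RefSeq promoter. In the same bases ATCAAT was found for 6.15% of all and for 1 member, Sema6d. The sites that CUX1 occupies were not measured.

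Nrp1, the neuropilin that binds Sema3a and Sema3c and is present on callosal axons, was well above Nrp2 per length in WT at E19 (5.81 ± 1.01 against 0.596 ± 0.113 CPM per kb of exon, mean ± SD, n = 8). Its libraries at E19 were at 102, 109.6, 67.9 and 102 CPM for WT females, 89.1, 73, 74.8 and 89.9 for WT males, 88.7, 84.6, 88.5 and 115 in Cux1 KO females and 89.5, 102, 80.9 and 112 in Cux1 KO males. These ranges overlapped and Nrp1 was not called in Cux1 KO (log2 fold change 0.09, SE 0.0939, adjusted p = 0.749). In Cux2 KO it was at 90.6, 48.8, 92.9 and 63.7 CPM in females and 122, 77.2, 78.9 and 73.5 in males, and was not called either (log2 fold change -0.13, SE 0.144, adjusted p = 0.868).

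Among the plexins, Plxna4, a co-receptor with neuropilins for class 3 semaphorins and a receptor for Sema6a, was at 334, 506, 308 and 424 CPM among WT females at E19 and at 459, 286, 372 and 302 among WT males. Cux1 KO females had 279.8, 269, 347 and 396 CPM and Cux1 KO males 436, 254, 302 and 446. The groups overlapped and Plxna4 was not called (log2 fold change -0.14, SE 0.127, adjusted p = 0.705). Nor was it in Cux2 KO (log2 fold change -0.09, SE 0.143, adjusted p = 0.921), where females had 364, 252, 346 and 287 CPM and males 553, 366, 269.7 and 383. Plxnd1, the receptor of Sema3e, had the next smallest p after Nrp2 over both sexes (log2 fold change -0.64, SE 0.172, adjusted p = 0.113) and was not called. DESeq2 without a prior on fold changes called it, together with Nrp2, where it called 0.777% of all genes. Without the filter on low counts edgeR called both as well, with 0.378% of all genes, and leaving out Cux1 KO male replicate 1 gave 2 calls, the same pair, with 0.429% of all genes. Of the 31 members, 16 had a positive and 15 a negative log2 fold change over both sexes, with a median of 0.03 against -0.00299 for all genes tested.

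**Figure D2:**
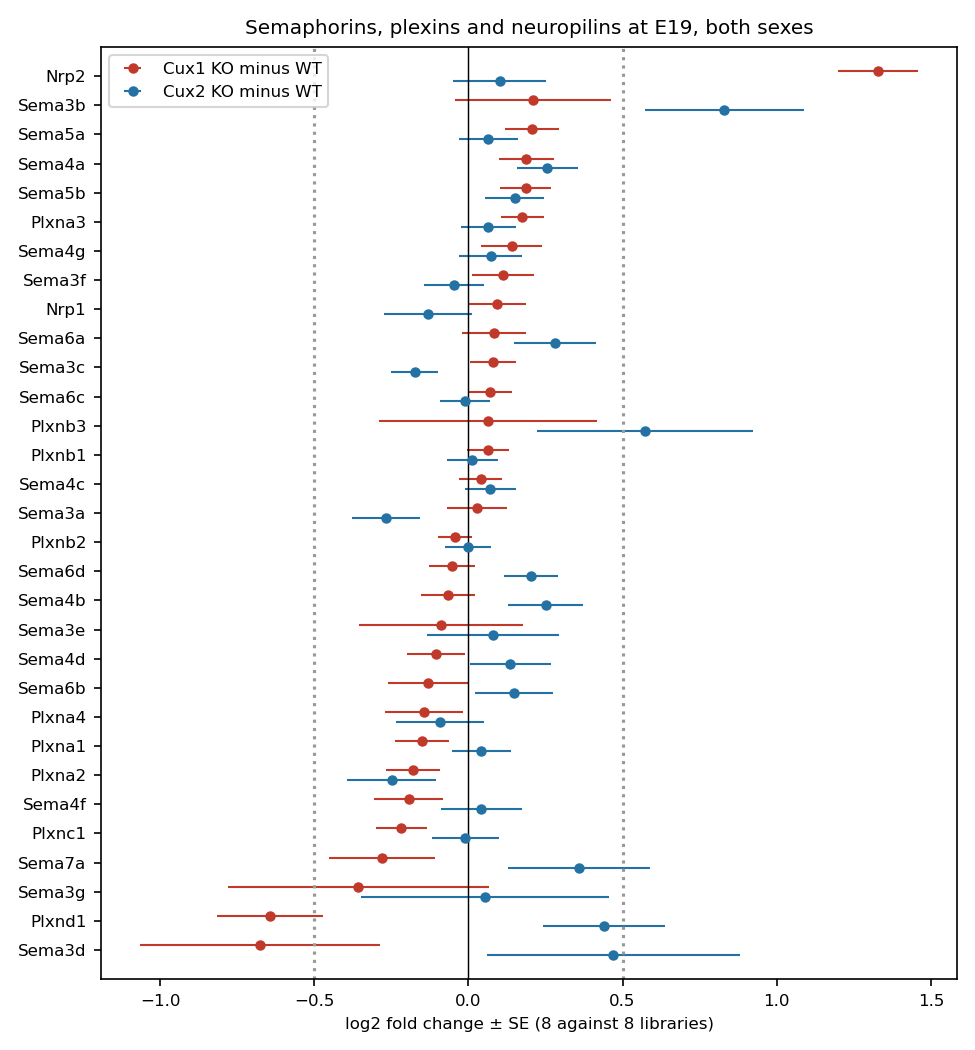
Log2 fold change ± SE of each of the 31 members in Cux1 KO (red) and Cux2 KO (blue) against WT at E19, over both sexes, with 8 libraries a group and dotted lines at the threshold of 0.5. Nrp2 in Cux1 KO, at 1.33, is the one member that passed the test, and the same WT libraries serve both comparisons.

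No member was called in Cux2 KO neurons at either age in edgeR, in females, in males or over both sexes. The rule called 0.0287%, 0.121% and 0.109% of all genes at E19 and 0%, 0% and 0.0503% at P4. Within either sex at P4 it called no gene at all, so it says little about the members there. At an unadjusted p under 0.05 stood 1, 6 and 7 members at E19 and 4, 0 and 2 at P4, and 4.62, 7.94 and 8.75% of all genes at E19 and 7.39, 5.76 and 6.28% at P4. DESeq2 called 1 member, Sema3b, in E19 males, and 0 in the other 5 comparisons. Over all genes it called 13 to 75 in those 5 with its prior and 30 to 362 without. Nrp2 was at 7.88, 7.33, 9.6 and 4.78 CPM in Cux2 KO females and 7.76, 7.09, 8.94 and 8.27 in Cux2 KO males at E19, within or near the WT range (log2 fold change 0.10, SE 0.151, adjusted p = 0.917 over both sexes).

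Sema3b, a secreted semaphorin, had the smallest p in Cux2 KO males at E19. It was at 1.46, 2.2, 2.05 and 1.57 CPM in WT males and 4.64, 3.87, 6.17 and 4.2 in Cux2 KO males, with no overlap, as for 4.46% of all genes in either direction (log2 fold change 1.36, SE 0.289, adjusted p = 0.189). DESeq2 called it there, with its prior and without, where it called 0.363% and 0.455% of all genes. In females Sema3b was at 2.28, 0.901, 2.35 and 3.15 CPM in WT and 2.89, 3.27, 1.87 and 2.57 in Cux2 KO, and the groups overlapped. The difference between the sexes in this effect was -1.06 (females minus males, SE 0.462, adjusted p = 0.979). All of these levels were a few CPM.

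Plxna2, a receptor of Sema6a and a partner of neuropilins, had the smallest p of the members in Cux2 KO females at E19 (log2 fold change -0.44, SE 0.135, adjusted p = 0.754). Its libraries were at 538, 677, 501 and 647 CPM in WT females and 536, 415, 447 and 327 in Cux2 KO females. At P4 it was lowest in p again, at 114, 98.8 and 114 CPM in WT females against 79.8, 77.2 and 61.7 in Cux2 KO females (log2 fold change -0.58, SE 0.142, adjusted p = 0.521). The Cux2 KO female libraries lay below the WT ones at P4. In males at P4 it was at 61.8, 114 and 68.6 CPM in WT and 58.7, 55.4 and 52.1 in Cux2 KO, and all Cux2 KO libraries were below all WT libraries there too (log2 fold change -0.57, SE 0.256, adjusted p = 0.896). Of all genes, 7.53% in females and 5.73% in males had every Cux2 KO library below every WT library at P4. Over both sexes Plxna2 was not called (log2 fold change -0.58, SE 0.146, adjusted p = 0.466).

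Set directly against each other at E19, the KO genotypes differed in Nrp2, Plxnd1 and Sema7a in females and in Nrp2 in males. These comparisons use the same Cux1 KO libraries as above and so are not independent of the rise of Nrp2. In females 3 of 31 members were called, where 1.34% of all genes were, and in males 1 of 30, where 0.378% were. Nrp2 was lower in Cux2 KO than in Cux1 KO in females (log2 fold change -1.39, SE 0.195, adjusted p = 0.00353) and in males (log2 fold change -1.06, SE 0.159, adjusted p = 0.015). The call in males was lost without Cux1 KO replicate 2 (adjusted p = 0.079) or 4 (adjusted p = 0.0807), and with the replicate number as a block (adjusted p = 0.107, with 0 members and 0.16% of all genes called). Without Cux2 KO replicate 2 there were 3 calls in males, Nrp2, Plxnd1 and Sema3b, where 1.95% of all genes were called. DESeq2, with its prior or without, and edgeR with no filter on low counts called the same 3 genes in males, where they called 1.8%, 2.15% and 0.874% of all genes.

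Plxnd1 was at 14.6, 15.9, 15.3 and 14.6 CPM in Cux1 KO females and 26.8, 44.3, 25.7 and 41.5 in Cux2 KO females at E19, without overlap, as for 6.92% of all genes (log2 fold change 1.20, SE 0.183, adjusted p = 0.00508). WT females lay across this range, at 15.3, 22.8, 20.2 and 42.3 CPM. In males the values were 31.7, 23, 26.1 and 17 CPM in WT, 23.3, 12, 14.9 and 17.5 in Cux1 KO and 23.7, 23.3, 40.2 and 43.4 in Cux2 KO. The highest Cux1 KO and the lowest Cux2 KO male library were next to each other, and Plxnd1 was not called there (log2 fold change 0.96, SE 0.246, adjusted p = 0.151). Sema7a, a membrane-anchored semaphorin that binds integrins and Plxnc1, was at 98.9, 104, 89 and 83.2 CPM in Cux1 KO females and 130.3, 146, 152 and 179 in Cux2 KO females (log2 fold change 0.70, SE 0.117, adjusted p = 0.00824). The female KO groups did not overlap in Sema7a, and WT females were at 109.6, 166, 67.9 and 117 CPM, across both. In males Sema7a ran from 70.9 to 309.7 CPM in Cux2 KO and from 86.8 to 177 in Cux1 KO. With all 6 groups of E19 in one fit, Plxnd1 and Sema7a lost their calls in females (adjusted p = 0.061 and 0.48) and Nrp2 kept its own, where 0.18% of all genes were called.

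In Cux1 KO males at P4 most members were below WT, but no member was called in edgeR and neither was any other gene. Of 30 members tested, 26 had a negative log2 fold change, with a median of -1.30, against 57.1% of all genes and a median of -0.18. The 2 Cux1 KO libraries were both below all 3 WT libraries for 16 members and both above for 2. Over all genes the shares were 23.1% and 18.6%. The 16 were Plxna2, Plxna3, Plxnb1, Plxnb2, Plxnb3, Plxnc1, Sema3c, Sema3d, Sema3e, Sema4a, Sema4c, Sema4d, Sema5a, Sema5b, Sema6c and Sema6d. At an unadjusted p under 0.05 stood 7 members and 20.5% of all genes. DESeq2 called 8 members without its prior and 6 with it, all lower, where it called 15.2% and 12.5% of all genes. Sema3e, Sema4a, Sema5a, Sema5b, Plxna2 and Plxnc1 were the 6, and Nrp2 and Plxnb3 were added without the prior. One edgeR fit over all groups of P4 called 8 (Nrp2, Plxna2, Plxnb1, Plxnb3, Sema3e, Sema4c, Sema5a and Sema5b), where it called 11% of all genes. Without Cux1 KO replicate 2, the remaining Cux1 KO library against the 3 WT libraries gave 5 calls (Plxna3, Plxnb2, Plxnb3, Sema4c and Sema4d), where 2.85% of all genes were called, a fit in which that lone library is assumed to vary as the WT libraries do.

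Sema5a, a membrane semaphorin that binds plexins of class A, had the smallest p. It was at 30.6, 54.7 and 59.6 CPM in WT males, 36.1, 34.7 and 18.4 in Cux2 KO males and 7.74 and 7.55 in Cux1 KO males. The Cux1 KO libraries were below all others (log2 fold change -2.67, SE 0.414, adjusted p = 0.0764). Among the other members whose Cux1 KO libraries lay below WT were Sema5b at 24.3 and 27.5 CPM against 87.8, 59.6 and 42.3, and Plxna2 at 16.4 and 27.8 against 61.8, 114 and 68.6. Plxna1, a receptor for class 3 and class 6 semaphorins, was one of the 2 that lay above, at 23.2 and 18.8 CPM against 2.88, 11.5 and 8.44 (log2 fold change 1.45, SE 0.675, adjusted p = 0.309). The other was Sema6b, at 3.67 and 5.1 against 0.503, 2.76 and 1.34 CPM. Neither of these passed the test.

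Nrp2, Sema3b, Sema3e, Sema3g and Sema4f had 0 counts in both Cux1 KO libraries at P4, where 3 counts, the limit that a count of 0 allows, correspond to 0.0695 and 0.151 CPM, counting error only. Sema3e, the ligand of Plxnd1, was at 4.06, 7.62 and 4.37 CPM in WT males, so that its mean was at least 48.6-fold higher in WT than the mean of these limits. Nrp2 was at 3.56, 0 and 12.8 CPM in WT males, with 1 WT library at 0 as well, so the groups overlapped and the rise seen at E19 was not seen at P4. The P4 libraries of the other genotypes held counts of 28 to 31 of the 31 members, and the Cux1 KO libraries of 21 and 25. Over all genes the Cux1 KO libraries also held counts of fewer genes, 17049 and 19115, against 20844 to 23736 in the other P4 libraries. In Cux2 KO males against Cux1 KO males at P4, 1 of 30 members was called, where 2.98% of all genes were: Sema3b, at 2.44, 5.31 and 6.11 CPM against 0 in both Cux1 KO libraries (adjusted p = 0.0496, mean at least 42-fold higher in Cux2 KO). That call was lost without any 1 of the Cux2 KO libraries, with adjusted p of 0.104 to 0.135, and leaving out Cux1 KO replicate 1 or 2 gave 6 and 10 members called, where 8.12% and 15.3% of all genes were, in fits that take the spread from the Cux2 KO libraries alone. DESeq2 called 10 members without its prior and 8 with it, where it called 16% and 13.5% of all genes, and one edgeR fit over all groups of P4 called 6, where it called 8.54%. With the replicate number as a block edgeR called 0 members and 0% of all genes.

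Markers of other cell types also differed in these 2 libraries, most of them lower. Ependymal genes summed to 0.139 to 0.151 CPM against 37.6 to 103 in WT males, endothelial genes to 0 to 42.7 against 106 to 236, mural genes to 0.251 to 53.3 against 247 to 419, microglial genes to 9.44 to 14.2 against 37.8 to 40.8, and interneuron genes to 33.7 to 117 against 343 to 547. The oligodendrocyte lineage sum was 1107 to 1239 against 2088 to 2949 CPM, the intermediate progenitor sum 71.6 to 104 against 176 to 247, and the sum of Cajal-Retzius genes 0.301 to 24.6 against 43.8 to 64.2. Astrocyte and radial glia genes summed to 3366 to 5319 against 2408 to 3515 CPM, with overlap and a higher maximum in Cux1 KO. Pan-excitatory genes summed to 1810.4 to 2092 against 807 to 1234 CPM and upper-layer and callosal genes to 1248 to 1701 against 839 to 993, higher in both Cux1 KO libraries. The part of these differences in the levels of the semaphorins and their receptors was not tested. In bulk samples, fewer cells of a type and less RNA per cell cannot be told apart.

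**Figure D3:**
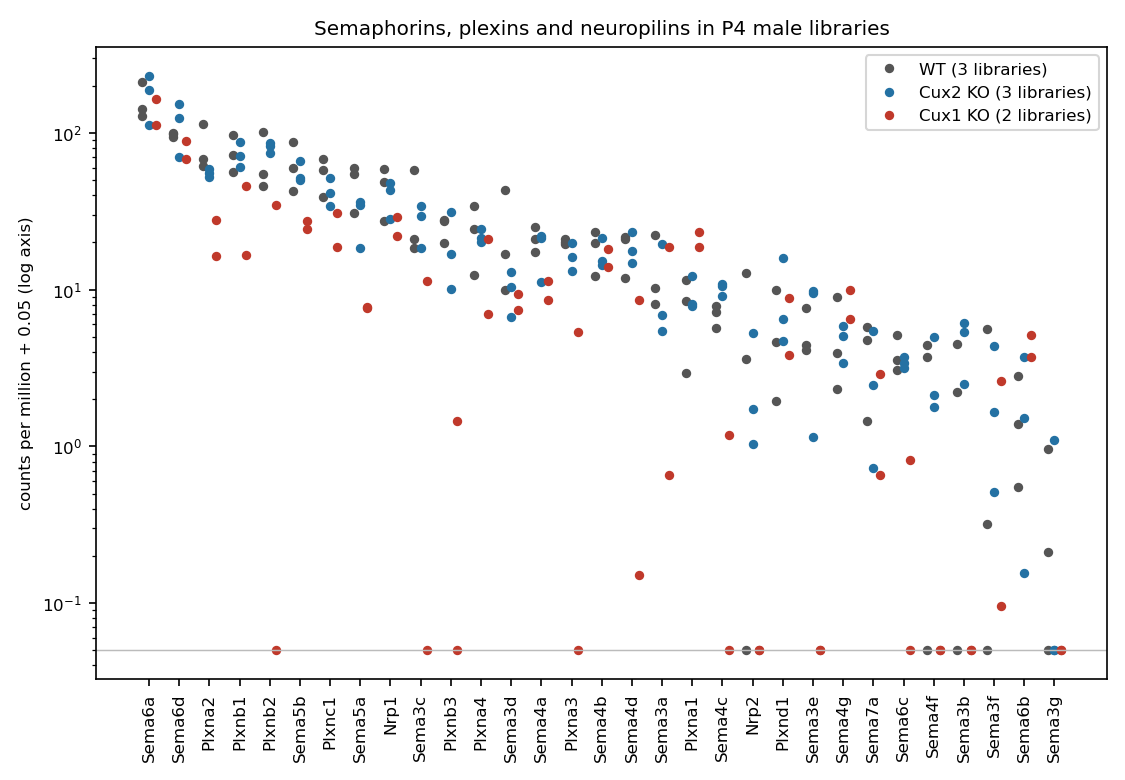
CPM plus 0.05 (log axis) of the 31 members in P4 male libraries, ordered by the WT mean, with each point a library and the grey line marking 0 counts. Most red points (2 Cux1 KO libraries) lie below the grey (3 WT) and blue (3 Cux2 KO) points of the same gene, and 5 members are on the line in both.

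Age had more calls in the family than genotype or sex. In WT neurons 25 of 31 members differed between E19 and P4, 4 higher and 21 lower at P4, where the same rule called 45.9% of all genes, 22.6% higher and 23.3% lower. The ages did not overlap for 24 members, 21 lower and 3 higher, and for 44.9% of all genes. The median log2 fold change was -2.16 over the members and 0.04 over all genes tested. Round of sequencing is part of this comparison and cannot be told apart from age. Across the 31 members the log2 fold change fell with the G and C content of the longest transcript of each gene (Spearman rank correlation -0.481). It did so across 19994 genes as well (-0.303), all from the same 14 libraries, which is a description and not a test. The marker sums given above moved with this comparison too, and their part in it was not tested.

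The secreted class 3 semaphorins went both ways. Sema3c, which attracts callosal axons, was at 409 to 494 CPM (median 451) at E19 and 18.3 to 57.8 CPM (median 46.2) at P4 (log2 fold change -3.48, SE 0.254). Sema3a, a repellent for cortical axons, was at 38.6 to 70.5 CPM (median 52.7) at E19 and 8.02 to 22.1 CPM (median 10.8) at P4 (log2 fold change -2.11, SE 0.222). Sema3f, the ligand of Nrp2, was at 49.7 to 70.7 CPM (median 56.6) at E19 and 0 to 5.58 CPM (median 0.907) at P4 (log2 fold change -4.95, SE 0.875). All 3 fell without overlap between the ages (adjusted p 1.76e-08 to 0.000149). Sema3d and Sema3e rose. Sema3d was at 0.408 to 1.43 CPM (median 0.725) at E19 and 4 to 43 CPM (median 13.3) at P4 (log2 fold change 4.24, SE 0.498), and its libraries did not overlap. Sema3e was at 1.29 to 3.41 CPM (median 2.02) at E19 and 1.42 to 7.62 CPM (median 4.22) at P4 (log2 fold change 1.09, SE 0.35), with overlap. The adjusted p was 2.64e-06 for Sema3d and 0.0129 for Sema3e, and the Sema3e call was lost without WT E19 male replicate 4, WT P4 female replicate 2 or WT P4 male replicate 2, with log2 fold changes of 0.72 to 0.99. Sema3b and Sema3g were not called (log2 fold change 0.54 and -2.16).

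The class 4 membrane semaphorins were lower at P4 in 5 of 6 cases. Sema4c, a ligand of Plxnb2, was at 129.5 to 196 CPM (median 156) at E19 and 5.62 to 13.8 CPM (median 8.53) at P4 (log2 fold change -4.07, SE 0.164). Sema4g was at 148 to 293 CPM (median 207) at E19 and 2.26 to 8.86 CPM (median 5.89) at P4 (log2 fold change -5.10, SE 0.286). Sema4f was at 32.3 to 53.9 CPM (median 38.4) at E19 and 0 to 4.6 CPM (median 2.04) at P4 (log2 fold change -4.22, SE 0.865). These were the largest falls of the class. Sema4b was at 47.3 to 86 CPM (median 67) at E19 and 12.2 to 23.3 CPM (median 16.3) at P4 (log2 fold change -1.98, SE 0.188), and Sema4d, the ligand of Plxnb1, was at 33.2 to 47.1 CPM (median 42.3) at E19 and 4.22 to 21.7 CPM (median 16.6) at P4 (log2 fold change -1.41, SE 0.275). Libraries of the 2 ages did not overlap for any of the 5 (adjusted p 6.27e-11 to 0.000543). Sema4a, with a log2 fold change of -0.74, stayed under the fold threshold. Part of the exons of Sema4c (16.8%), Sema4d (13.7%) and Sema4g (12.7%) overlaps a gene on the opposite strand, and the strand setting of the counting is not stated, so these 3 are less certain.

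In classes 5 to 7 the falls were largest for Sema6c, Sema6b and Sema7a. Sema6c was at 180.0 to 266 CPM (median 227) at E19 and 2.26 to 5.09 CPM (median 2.75) at P4 (log2 fold change -6.19, SE 0.203). Sema6b was at 52.4 to 101 CPM (median 72.2) at E19 and 0.178 to 2.76 CPM (median 1.13) at P4 (log2 fold change -5.97, SE 0.442). Sema7a was at 67.9 to 205 CPM (median 114) at E19 and 0.431 to 5.72 CPM (median 1.54) at P4 (log2 fold change -5.78, SE 0.469). Each of these was at a few CPM or less at P4. Sema5a was at 83.2 to 122 CPM (median 92) at E19 and 30.6 to 59.6 CPM (median 47) at P4 (log2 fold change -1.11, SE 0.164) and Sema5b at 93.5 to 156 CPM (median 116) at E19 and 38 to 87.8 CPM (median 50.7) at P4 (log2 fold change -1.10, SE 0.187), falls of close to the fold threshold. Sema6a, a membrane ligand of Plxna2 and Plxna4, rose, from 24.4 to 39.4 CPM (median 30.6) to 70.8 to 213 CPM (median 135) (log2 fold change 2.11, SE 0.187). The adjusted p of these 6 ran from 1.09e-11 to 0.000104 and none overlapped between the ages. Sema6d was not called (log2 fold change 0.29, SE 0.161, adjusted p = 0.122). Without WT P4 female replicate 3, Sema5b stood at a log2 fold change of -0.998, just under the threshold in size.

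All 4 class A plexins, the receptors that pair with neuropilins, fell. Plxna3 was at 257 to 342 CPM (median 319) at E19 and 4.56 to 20.8 CPM (median 16.1) at P4 (log2 fold change -4.45, SE 0.27). Plxna4 was at 286 to 506 CPM (median 353) at E19 and 12.4 to 34 CPM (median 23.7) at P4 (log2 fold change -3.93, SE 0.237). Plxna1 was at 88.2 to 142 CPM (median 116) at E19 and 2.88 to 13.8 CPM (median 8.75) at P4 (log2 fold change -3.76, SE 0.29). Plxna2 fell least of the 4 and was at 456 to 677 CPM (median 552) at E19 and 61.8 to 114 CPM (median 106) at P4 (log2 fold change -2.55, SE 0.143). Class B went both ways: Plxnb1, the Sema4d receptor, was at 281 to 382 CPM (median 342) at E19 and 56 to 97.7 CPM (median 76.1) at P4 (log2 fold change -2.17, SE 0.131) and Plxnb2 at 414 to 522 CPM (median 458) at E19 and 45.9 to 102 CPM (median 76.7) at P4 (log2 fold change -2.63, SE 0.159). Plxnb3 rose and was at 0.193 to 2.61 CPM (median 1.69) at E19 and 7.37 to 27.7 CPM (median 17.6) at P4 (log2 fold change 3.37, SE 0.406). Plxnd1 was at 15.3 to 42.3 CPM (median 22.9) at E19 and 1.91 to 9.85 CPM (median 4.44) at P4 (log2 fold change -2.33, SE 0.377). For these 8 the libraries of the ages did not overlap (adjusted p 1.23e-09 to 6.64e-05), and Plxnc1, the Sema7a receptor, was the one plexin not called (log2 fold change -0.50, SE 0.164, adjusted p = 0.0148). Of the exons of Plxna2, 15.4% overlap Gm6403 and of those of Plxna1, 6.22% overlap Gm26811, both on the opposite strand.

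The neuropilins differed. Nrp1 was at 67.9 to 109.6 CPM (median 89.5) at E19 and 27.4 to 58.6 CPM (median 41.8) at P4 (log2 fold change -1.08, SE 0.178), and its fall was called (adjusted p = 7.95e-05) with no overlap. Without WT P4 female replicate 3 or WT P4 male replicate 2 its log2 fold change was -0.99 and -0.99, just under the threshold. Nrp2 was at 4.92 to 8.84 CPM (median 6.9) at E19 and 0 to 12.8 CPM (median 3.25) at P4 (log2 fold change -0.65, SE 0.698) and was not called (adjusted p = 0.428). After birth Nrp2 was uneven between libraries, at 6.54, 1.84 and 2.93 CPM in WT females at P4, 3.56, 0 and 12.8 in WT males, 4.75, 6.19 and 5.5 in Cux2 KO females and 5.25, 0.989 and 1.69 in Cux2 KO males. At P7 it was at 4.62 and 8.05 CPM in females and 1.61, 2.76 and 4.94 in males. Nrp1 was at 47.6, 35.9 and 31.1 CPM in WT females at P4, 48.7, 27.4 and 58.6 in WT males, 39.5, 42.9 and 46.5 in Cux2 KO females and 28, 47.6 and 42.9 in Cux2 KO males. The Cux1 KO males at P4 had 21.9 and 29.2 CPM of Nrp1, and the P7 libraries 39.3 and 65.9 in females and 45, 51.6 and 36.2 in males. Neither neuropilin was called between P4 and P7 (log2 fold change 0.19 for Nrp1 and -0.10 for Nrp2). Plxna4, with which they pair, was at 32.7, 19.5 and 23.1 CPM in WT females at P4, 12.4, 24.2 and 34 in WT males, 20.6, 19 and 14.7 in Cux2 KO females, 24.2, 20 and 21.5 in Cux2 KO males and 6.93 and 21 in Cux1 KO males. At P7 it was at 15.8 and 22.7 CPM in females and 12.7, 10.2 and 23.7 in males, and the groups of the 2 ages overlapped.

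**Figure D4:**
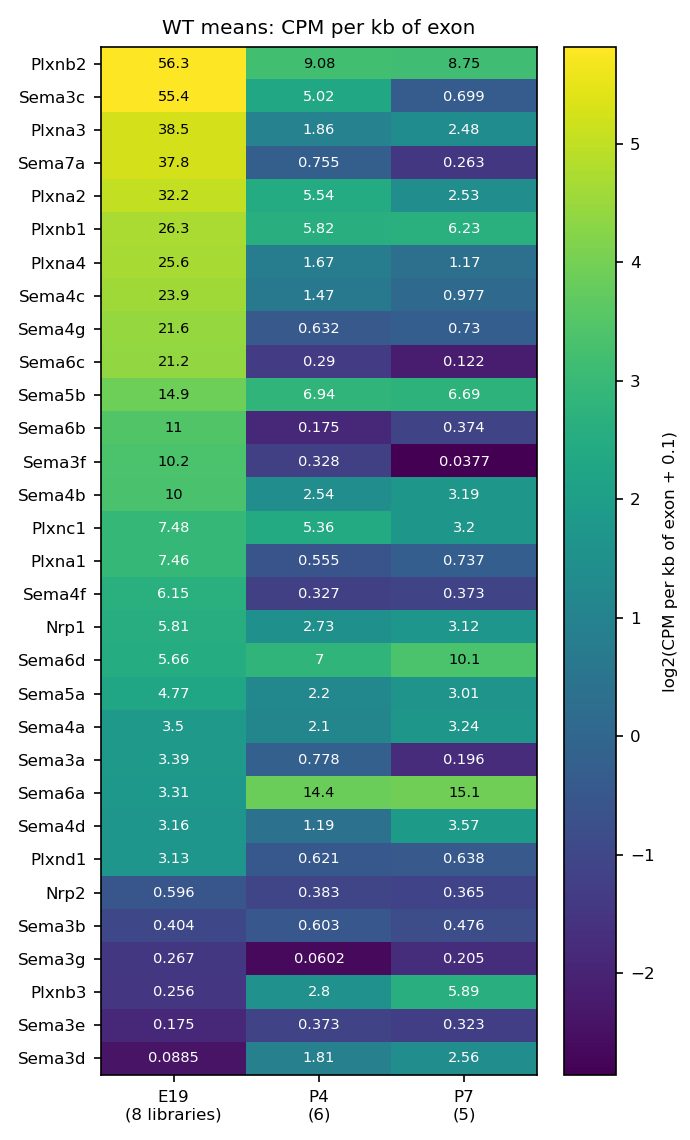
Mean CPM per kb of annotated exon in WT libraries for each of the 31 members at E19 (8 libraries), P4 (6) and P7 (5), ordered by the E19 level, with colour giving log2(CPM per kb + 0.1). Most members are lower at P4 than at E19. Sema6a, Plxnb3, Sema3d and Sema3e are higher, and so are the means of Sema6d and Sema3b, which were not called.

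Per kb of exon, the order of the members thus changed. At E19 Plxnb2 (56.3 ± 5.11 CPM per kb, mean ± SD, n = 8) and Sema3c (55.4 ± 3.95) led and did not differ beyond their SD, followed by Plxna3 (38.5 ± 4.24), below both by more than the SDs. At P4 Sema6a led (14.4 ± 4.78, n = 6), and its SD reached that of Plxnb2 (9.08 ± 2.58). At P7 Sema6a (15.1 ± 3.18, n = 5) and Sema6d (10.1 ± 2.41) led and did not differ beyond their SDs. Sema7a came next after Plxna3 at E19 (37.8 ± 12.9) and near the bottom at P7 (0.263 ± 0.0596).

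Between P4 and P7, within the second round of sequencing, 5 of 31 members were called, where 2.05% of all genes were. Sema3c fell further, from 42.9, 49.5 and 56.7 CPM in females and 18.3, 21 and 57.8 in males at P4 to 6.66 and 10.4 in females and 4.61, 2.65 and 4.19 in males at P7 (log2 fold change -2.84, SE 0.344, adjusted p = 0.00404). Its libraries did not overlap, and the call held with any library left out. Sema3a fell as well, from 11.4, 11.3 and 10.1 in females and 8.02, 10.3 and 22.1 in males to 3.03 and 0.416 in females and 5.04, 5.05 and 1.75 in males (log2 fold change -2.17, SE 0.535, adjusted p = 0.0425), without overlap. Plxna2 fell from 61.8 to 114 CPM (median 106) to 25.7 to 62.9 CPM (median 43.9), and 1 P7 library lay within the P4 range (log2 fold change -1.10, SE 0.201, adjusted p = 0.014).

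Sema4d and Plxnb3 rose. Sema4d, a ligand of Plxnb1, was at 15.5, 17.7 and 4.22 CPM in females and 21.7, 21 and 11.7 in males at P4, and at 42.7 and 51.8 in females and 40.9, 48 and 46.5 in males at P7 (log2 fold change 1.58, SE 0.328, adjusted p = 0.0223). Plxnb3 was at 12.7, 15.4 and 7.37 in females and 27.7, 19.7 and 27.5 in males at P4, and at 33.8 and 41.9 in females and 33.5, 38.9 and 45.4 in males at P7 (log2 fold change 1.11, SE 0.248, adjusted p = 0.0291). Every P7 library stood above every P4 library for both, and 6.83% of all genes did not overlap between these ages. Sema4d and Plxnb3 are known to be present in cells of the oligodendrocyte lineage, whose 7 markers summed to 492 to 734 CPM at E19, 629 to 2949 at P4 and 3206 to 4995 at P7. Microglial markers summed to 37.8 to 63.3 at P4 and 183 to 969 at P7. Their part in these rises was not tested.

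In edgeR the calls between P4 and P7, other than Sema3c, depended on single libraries. Sema3a lost its call without any 1 of 10 of the 11 libraries, Plxnb3 without any 1 of 8, Sema4d without WT P7 female replicate 1 or 2 or male replicate 2, and Plxna2 without WT P4 male replicate 2 or WT P7 male replicate 2. In those fits the adjusted p went up to 0.0834, and the size of the log2 fold change fell to 0.95 for Plxnb3 and to 0.93 for Plxna2. Sema3a kept its call without WT P4 male replicate 1, and Plxnb3 without WT P4 male replicates 1 and 3 and WT P7 male replicate 1. The counts ranged from 1, without WT P7 male replicate 2, to 5. A single edgeR fit over all WT and KO groups of P4 and P7 called Plxna2 and Sema3c, where it called 1.98% of all genes. DESeq2 without its prior called the same 5 members and Sema6c, where it called 1187 genes. With its prior it called Plxna2, Sema3a, Sema3c and Sema4d but not Plxnb3, where it called 569 genes.

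**Figure D5:**
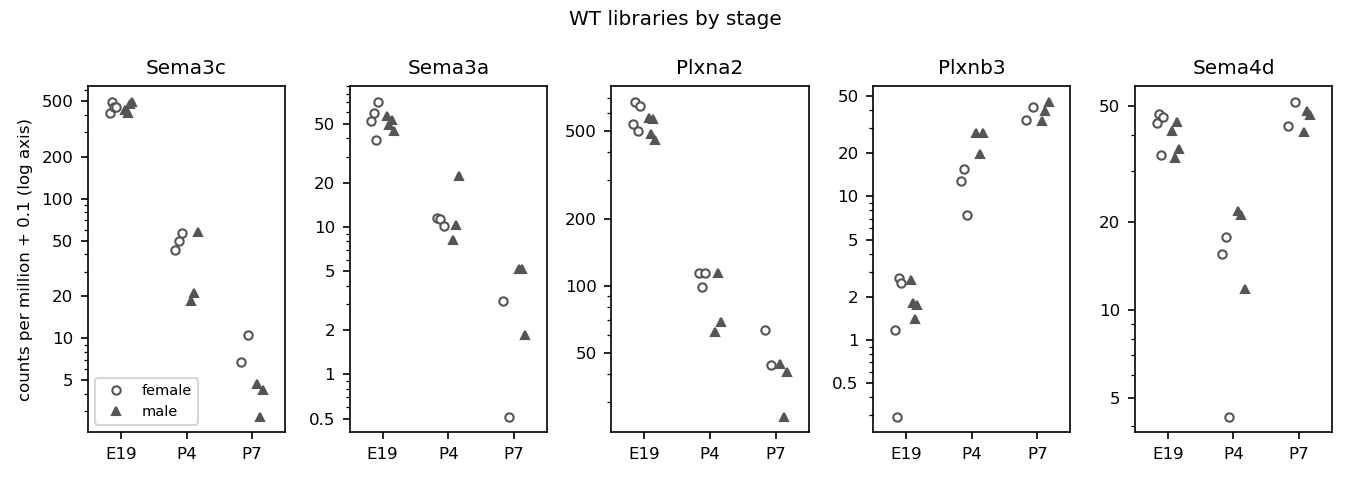
CPM plus 0.1 (log axis) in every WT library at E19, P4 and P7 for the 5 members called between P4 and P7, with open circles for females and filled triangles for males. Sema3c, Sema3a and Plxna2 fall from E19 to P7, Plxnb3 rises, and Sema4d is lower at P4 than at E19 and P7.

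No member was called between female and male WT neurons at any age, where the test called 0.0461%, 0% and 0.0247% of all genes at E19, P4 and P7. At P4 the test called no gene at all, so it says little about the members there. At an unadjusted p under 0.05 stood 1, 4 and 1 members, with 3.67, 7.28 and 4.36% of all genes, and DESeq2 with its prior and without it called 0 members at each age. The member of smallest p was Sema5b at E19, at 128, 112, 121 and 156 CPM in females and 95.2, 122, 93.5 and 109 in males, with overlap (log2 fold change 0.28, SE 0.118, adjusted p = 0.992). At P4 it was Plxnb3, whose values are given above and whose males were all higher (log2 fold change -1.07, SE 0.332, adjusted p = 0.675). The 7 oligodendrocyte lineage markers also separated the sexes there, with 629 to 1723 CPM in females and 2088 to 2949 in males, and their part in the level of Plxnb3 was not tested. At P7 it was Sema3c, whose females were both higher (log2 fold change 1.16, SE 0.399, adjusted p = 1). The sexes were fully apart in 15.5% of genes at P4 and 18.5% at P7. No member passed in the 5 interaction terms, which ask whether the effect of Cux1 KO at E19, of Cux2 KO at E19 or P4, or of age in WT (E19 to P4, P4 to P7) differed between the sexes. On the adjusted p alone, with no fold threshold, 0%, 0%, 0%, 0.0747% and 0% of all genes were called there. A term in which no gene was called says little about the members. At an unadjusted p under 0.05 stood 2, 2, 3, 6 and 2 members and 3.81%, 3.78%, 7.27%, 11.2% and 5.42% of all genes. DESeq2 without a prior called 0 members in each, and 0, 0, 284, 436 and 151 of all genes in the same order. Without WT P4 male replicate 3, Sema3c was called in the term for E19 to P4, where 0.546% of all genes were.

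Of the other genes of the pathway, 8 co-receptors and 26 intracellular partners were followed. No gene of either list was called in any comparison of KO with WT or between the sexes in edgeR. At an unadjusted p under 0.05 stood 2 of 8 and 10 of 26 in Cux1 KO at E19 over both sexes, and 1 and 1 in Cux2 KO, where 12.6% and 8.75% of all genes did. DESeq2 called Nrcam in Cux2 KO at E19 (in females, and without its prior over both sexes), Arhgef11 and, without its prior, Kdr in Cux1 KO males at P4, and Rras between the sexes at P4, and 0 genes of the lists in the other comparisons of these kinds. Between E19 and P4 in WT, 6 of 8 co-receptors and 11 of 26 intracellular partners were called, beside 45.9% of all genes. Of the co-receptors, Nrcam (log2 fold change 1.04) and Kdr (2.12) were higher, and L1cam (-4.29), Chl1 (-1.93), Met (-3.88) and Cntn2 (-7.61) lower at P4. L1cam and Chl1 are adhesion molecules that associate with neuropilins. Of the intracellular partners, Rap1b (1.11) and Rap1a (1.01) were higher. The other 9 were lower, among them the collapsin response mediators Crmp1 (-2.23) and Dpysl5 (-5.05), Arhgef11 (-3.18) and Arhgef12 (-2.25), which bind class B plexins, Mical1 (-1.04) and Mical3 (-2.35), Limk1 (-2.89), Cfl1 (-1.11) and Farp1 (-1.58). Between P4 and P7 L1cam (-1.25) and Dpysl5 (-1.11) fell further, 1 gene of each list, where 2.05% of all genes were called. Mical2, of the flavoprotein enzymes that bind class A plexins, was higher in Cux2 KO than in Cux1 KO females at E19 (log2 fold change 0.97, SE 0.178, adjusted p = 0.0137).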

How the data were processed

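RNA-seq of 43 libraries of sorted GFP+ L2/3 neurons was analysed from 1 table of raw read counts per Ensembl gene, deposited by the authors. Per the paper's methods, the authors aligned 60-nt single-end reads to GRCm39 with hisat2, masking the Y chromosome for females and its pseudoautosomal region for males, removed reads duplicated beyond a threshold of 50, and counted primary alignments with featureCounts on Ensembl release 108. The strand setting of the counting is not given in the sources used here, and the libraries carry no molecular identifiers, so reads of a gene and of its antisense partner cannot be told apart and PCR copies may remain.

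Counts were tested in R 4.3.3 with edgeR 4.0.16 (TMM, filterByExpr, quasi-likelihood test, Benjamini-Hochberg over all genes tested), with sex as covariate where sexes were combined and only the groups compared in each fit. The study used DESeq2, which was run as an alternative (1.42.0). Positions and exon lengths are those of GENCODE M39 on GRCm39. Members and lists were chosen with earlier results of these data known. Values per library are given for Nrp2, Nrp1, Plxna4, each called member and the member of smallest p in each comparison of KO with WT or of sexes. Pathway genes are named where called. Scripts were tested on simulated counts. The alternatives tried were DESeq2 with and without its fold change prior, other size factors, no filter, all groups in one fit, a replicate block, no fold threshold and each library left out.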

Additional observations from a re-analysis of the deposited data

Results flagged for a closer look

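Each of the 31 members was checked in each of the 6 groups of 4 libraries at E19 for 1 library standing apart from the other 3, and 10 of 186 combinations did, where chance gives about 1 in 20. None of the 10 was Nrp2. Nrp1 stood high in Cux1 KO female replicate 4 (115 CPM, others 84.6 to 88.7) and in Cux2 KO male replicate 1 (122 CPM, others 73.5 to 78.9). Sema5a stood high in WT female replicate 4 (122 CPM, others 86.0 to 91.1) and in Cux2 KO female replicate 1 (116 CPM, others 84.3 to 88.4). Plxna3 was low in WT female replicate 4, at 257 CPM against 317 to 328. Sema4c and Sema3e stood high in Cux2 KO female replicate 4, at 201 CPM against 153 to 158 and at 2.65 CPM against 1.66 to 1.82. Sema4d was low in Cux1 KO male replicate 3 (30.98 CPM, others 41.6 to 43.1), and Sema3b in Cux1 KO male replicate 4 (1.20 CPM, others 2.15 to 2.23). Sema3d stood high in Cux2 KO male replicate 3, at 2.27 CPM against 0.525 to 0.794.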

How the results depend on the processing

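Of 50 values of named genes, 34 stayed on their side of the threshold in each alternative run, and of 870 recomputed gene values 805 stayed, 58 lost their call, 7 gained one and 0 changed direction. The percentages in brackets here are shares of all genes called in the same fit. DESeq2 without its prior called 2 members in Cux1 KO at E19 over both sexes (0.777%), 8 in Cux1 KO males at P4 (15.2%) and 1 in Cux2 KO males at E19 (0.455%). In Cux2 KO against Cux1 KO males it called 3 at E19 (2.15%) and 10 at P4 (16%). With its prior it called 6, 1, 3 and 8 in the last 4 of these (12.5%, 0.363%, 1.8% and 13.5%). Without the filter on low counts there were 2 calls in Cux1 KO at E19 over both sexes (0.378%). The same setting gave 3 at E19 (0.874%) and 0 at P4 (0%) in Cux2 KO against Cux1 KO males. DESeq2's size factors in edgeR also gave 0 at P4 there (2.53%). One fit over all groups gave 8 calls in Cux1 KO males at P4 (11%). It gave 1 at E19 females (0.18%) and 6 at P4 males (8.54%) in Cux2 KO against Cux1 KO, and 2 between P4 and P7 in WT (1.98%). The cause of these shifts was not tested. Without the fold threshold, counts of members stayed within 1.5 times.

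With 1 library left out, 1 to 2 members were called in Cux1 KO at E19 over both sexes, where 19 to 80 genes were. In females and in males the range was 0 to 1 members, where 2 to 30 and 0 to 16 genes were called. In Cux2 KO against Cux1 KO at E19 it was 3 to 3 in females, among 122 to 237 genes, and 0 to 3 in males, among 22 to 346. Between WT ages it was 23 to 26 among 8903 to 9687 genes for E19 to P4 and 1 to 5 among 223 to 501 for P4 to P7. For the difference between sexes in the change from E19 to P4 it was 0 to 1, among 8 to 279 genes. Omissions in the P4 comparisons with Cux1 KO, which can leave 1 Cux1 KO library, are given above. The range was 0 to 0 in all other comparisons.

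The shared replicate numbers are not stated to mark a litter or a day, and same-numbered libraries did not deviate together in every pair of any comparison with 3 or more pairs (mean correlations of -0.16 to 0.14). The WT sexes at P7 had 2 such pairs (mean 0.36), too few for this check. With the replicate number as a block in edgeR, calls went to 0 in Cux2 KO against Cux1 KO males at E19 (Nrp2, adjusted p = 0.107) and at P4. There 0.16% and 0% of all genes were called. Between P4 and P7 calls went to 2, where 0.719% of all genes were called. The Sema3e rise from E19 to P4 had an adjusted p of 0.105 with the block. The block kept Nrp2 called in Cux1 KO at E19 over both sexes.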
